A study of Mus musculus with 12 samples.

Results

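The guanylin pathway of fluid secretion was followed through 5 genes, chosen by their symbols: the peptide hormones guanylin (Guca2a) and uroguanylin (Guca2b), their receptor guanylate cyclase C (Gucy2c), the type II cGMP-dependent protein kinase (Prkg2) and the chloride channel CFTR (Cftr). All 5 were found among the 38087 genes with an Ensembl identifier, with 1 entry each in every file, and all 5 were among the 13889 genes tested for a difference between genotypes. The study asked how chromosome instability influences the colon. Messenger RNA of mouse colonic mucosa was sequenced in 6 wild type and 6 Sgo1-/+ libraries. Sgo1 encodes shugoshin 1, a protector of the cohesion between sister chromatids, and the notation Sgo1-/+ marks 1 wild type and 1 altered copy, without a word on the alteration. Wild type and Sgo1-/+ mice alike had been dosed with the colon carcinogen azoxymethane, 4 mg/kg 2 times a week from 8 until 12 weeks of age, and their mucosa was taken at 9 months. No library came from a mouse without azoxymethane, so every level below is that of a carcinogen-treated colon. The labels do not say that each library came from a separate mouse, and the p-values therefore measure the spread between these libraries, which may be technical.

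Guanylin and uroguanylin are made by epithelial cells of the gut and released into the lumen, where they bind guanylate cyclase C on the apical membrane. The receptor then makes cyclic GMP, which activates the membrane-bound type II cGMP-dependent kinase. The kinase phosphorylates CFTR so that chloride and bicarbonate leave the cell, while sodium uptake through the exchanger NHE3 is inhibited, and water follows the salt. Guanylin is the main ligand of the colon and uroguanylin that of the small intestine, and loss of guanylin in colonic tumours is a known feature of human and mouse disease.

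The hormone genes are close paralogs, and their coding ends are shown because the receptor-binding peptide lies there. Each run below is the last 51 bases of the coding sequence, stop codon included, 5′ to 3′, from GENCODE M21. The capitals mark the 4 in-frame cysteine codons, whose disulfide bonds hold the peptide in its active shape.
Guca2a: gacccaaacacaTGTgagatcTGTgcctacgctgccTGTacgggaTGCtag
Guca2b: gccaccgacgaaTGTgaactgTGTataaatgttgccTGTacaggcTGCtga
The 4 cysteine codons stood at the same places from the end in both genes, and 32 of the 51 bases were identical. Over the whole coding sequences, of 351 bases in Guca2a and 321 in Guca2b, 66.1% of 295 aligned bases were identical and the longest shared run was 10 bases. Neither gene shared any 31-base word with another annotated gene, so a read of that length belongs to one paralog only.

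Guca2a (ENSMUSG00000023247) and Guca2b (ENSMUSG00000032978) are neighbours on chromosome 4 of mm10. Guca2a spans bases 119637704 to 119639471 on the plus strand and Guca2b bases 119656607 to 119658954 on the minus strand, 17135 bases apart with 0 annotated genes between them. The promoters of the pair are shown because these neighbours differed so widely in level. They were taken from RefSeq, build GRCm38.p6, and end at the last base before the annotated gene. In Guca2a the capitals mark TTATCT, the reverse complement of the GATA factor motif AGATAA. In Guca2b they mark GTTAAT, a partial site of the HNF1 factors.
Guca2a chr4:119637482-119637703, plus strand: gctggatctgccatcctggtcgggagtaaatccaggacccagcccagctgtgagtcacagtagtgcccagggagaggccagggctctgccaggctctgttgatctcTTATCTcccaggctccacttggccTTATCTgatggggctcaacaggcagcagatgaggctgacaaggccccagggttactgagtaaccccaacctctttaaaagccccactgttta
Guca2b chr4:119658955-119659195, minus strand: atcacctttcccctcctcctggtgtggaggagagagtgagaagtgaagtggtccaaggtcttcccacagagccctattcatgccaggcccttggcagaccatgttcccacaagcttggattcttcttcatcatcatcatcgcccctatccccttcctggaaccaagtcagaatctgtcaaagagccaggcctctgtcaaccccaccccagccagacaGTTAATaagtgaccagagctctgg
The GATA motif occurred 2 times in the Guca2a window, starting at 144 and 120 bases before the RefSeq start, and the partial HNF1 site 1 time in the Guca2b window, starting at 33 bases before it. Neither window held the other's motif or the letters TTTATG, a CDX motif, on either strand. Among 27025 promoters of 250 bases, 10.3% held AGATAA, 6.52% held GTTAAT and 11.1% held TTTATG on either strand. These matches describe letters in the windows and do not show binding.

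The libraries held 5711553 to 10198304 counts. Levels are given as CPM, the counts of a gene per 1e6 counts of the library, after TMM scaling, which corrects the library totals for a few very abundant genes. In these libraries 4 abundant entries resemble mitochondrial or ribosomal RNA (Gm13340, Gm13341, Gm11410 and AY036118). They took 18.3% to 46.5% of the wild type counts and 14.8% to 42.2% of the Sgo1-/+ counts, with medians of 27.1% and 17.9%. Replicates 3 and 5 of wild type and replicate 3 of Sgo1-/+ had shares of 42.2% to 46.5%, against 14.8% to 27.8% in the other 9 libraries. They are called the 3 richest libraries below. The targeted gene, listed as Sgol1, had a lowest, median and highest level of 1.48, 3.49 and 6.77 CPM in wild type and 1.83, 2.37 and 2.76 CPM in Sgo1-/+, on 9.50 to 71.2 counts per library, so the genotypes overlapped. The tissue was checked by its markers: 8 general epithelial markers summed to 6407 to 8401 CPM per library, 5 smooth muscle markers to 21.3 to 44.6 CPM and 5 fibroblast markers to 14.6 to 42.5 CPM. Immune cells were present at uneven levels: 7 leukocyte markers summed to 42.1 to 204 CPM and 2 plasma cell markers to 81.2 to 298 CPM.

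Guanylin was by far the most abundant of the 5 transcripts. Per kilobase of exon, Guca2a stood at 1019 to 2200 CPM per kilobase over the 12 libraries and Gucy2c at 30.2 to 79.5. Prkg2 followed at 11.1 to 25.1, Guca2b at 9.97 to 23.8 and Cftr at 10.01 to 15.7 CPM per kilobase. Guca2a was above Gucy2c and Gucy2c above Prkg2 in 12 of 12 libraries. The last 3 genes were not separated beyond their spread: Prkg2 was above Guca2b in 9 of 12 libraries, and Guca2b and Prkg2 were each above Cftr in 10 of 12. Guca2a ranked 65 of the 13889 tested genes by mean CPM, Gucy2c 437, Cftr 1394, Prkg2 1469 and Guca2b 7491.

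The Guca2a level per kilobase was 60.2 to 143.6 times that of Guca2b, with a median of 109 over the 12 libraries. This ratio was 60.2 to 135.0 in wild type and 80.7 to 143.6 in Sgo1-/+, so that every library had guanylin as the dominant ligand transcript and the genotypes overlapped. The ligand to receptor ratio, Guca2a over Gucy2c per kilobase, was 18.7 to 35.8 in the 9 libraries poorer in the mitochondrial-like entries and 35.2 to 72.7 in the 3 richest.

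**Figure D1:**
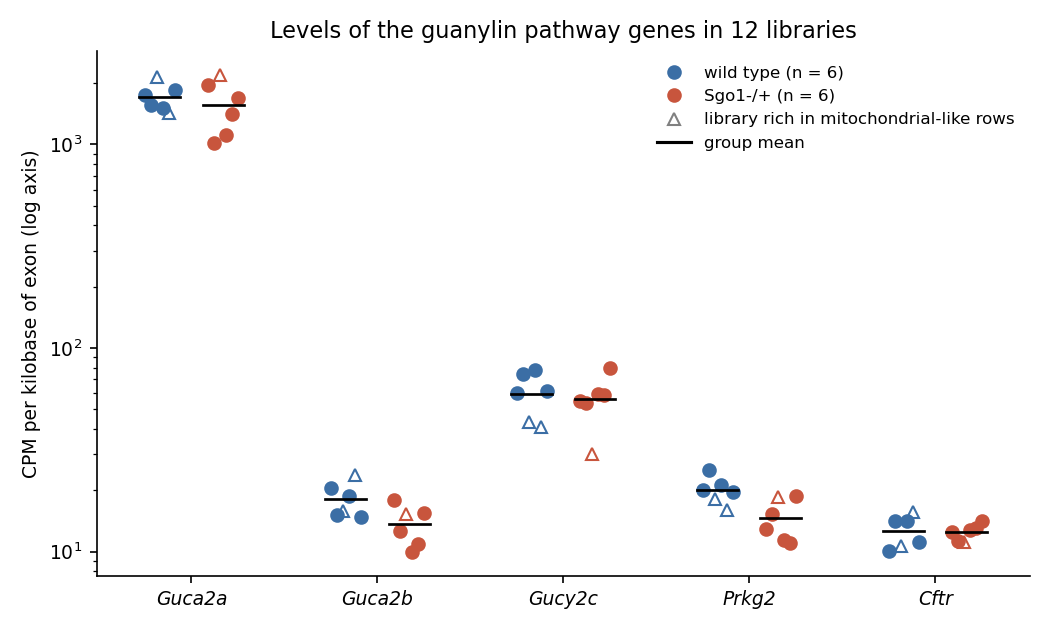
Level of each gene in CPM per kilobase of exon on a log axis, with 1 point per library, wild type in blue and Sgo1-/+ in red, open triangles for the 3 libraries richest in mitochondrial-like entries and a bar at each group mean (n = 6 each). Guca2a lies between 1019 and 2200, Gucy2c lies between 30.2 and 79.5, and the other 3 genes share a range from 9.97 to 25.1.

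The comparison of Sgo1-/+ with wild type asked whether any step of the pathway differed between the genotypes. None of the 5 genes passed the test over all genes. In edgeR's quasi-likelihood test with Benjamini-Hochberg adjustment, 0 of the 5 had an adjusted p under 0.05, and 0 of the 13889 tested genes did (0%). At an unadjusted p under 0.05, 2 of the 5 were lower in Sgo1-/+, Prkg2 and Guca2b, and 0 were higher, against 5.05% of tested genes lower and 4.59% higher, 9.63% in all. DESeq2 called 30 genes in all (0.216%) and limma-voom 0 (0%), none of them among the 5, and each gave an unadjusted p under 0.05 to the same 2 of the 5, both lower, and to 0 of the 5 higher. DESeq2 had 5.82% of tested genes lower and 4.36% higher at that threshold, limma-voom 5.80% lower and 4.37% higher, and each 10.2% in all. In bulk tissue, fewer cells of a type and less RNA per cell cannot be told apart, and this holds for every difference below.

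Prkg2, the kinase step, had the smallest p of the 5. Its lowest, median and highest levels were 86.0, 107.0 and 135.0 CPM in wild type and 59.3, 75.7 and 100.5 CPM in Sgo1-/+. All 6 Sgo1-/+ libraries lay below the wild type median and 4 of them below every wild type library, but the groups overlapped. The means were 107.6 ± 16.6 CPM and 78.8 ± 18.5 CPM (SD, n = 6 each), which is a log2 change of -0.45 ± 0.15 (SE) with a 95% interval of -0.78 to -0.12. The unadjusted p of edgeR's quasi-likelihood test was 0.0114 and the adjusted p 0.478. The exact two-sided permutation test of the single gene, over all 924 ways to divide the 12 libraries, gave p = 0.0195 for a difference of -0.47 in mean log2 CPM, unadjusted.

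The Prkg2 difference was larger outside the 3 richest libraries. There the 4 wild type libraries held 105.9 to 135.0 CPM and the 5 Sgo1-/+ libraries 59.3 to 100.5 CPM, which did not overlap. Such a separation among these 9 libraries was found for 3.10% of tested genes. The log2 change was then -0.62, with edgeR's adjusted p = 0.283 (unadjusted p = 0.00210). The 3 richest libraries, at 86.0 to 99.99 CPM, lay below those 4 wild type libraries and inside the range of the 5 Sgo1-/+ libraries, although 2 of the 3 were wild type.

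Uroguanylin followed the same direction. Guca2b had lowest, median and highest levels of 12.9, 15.1 and 20.7 CPM in wild type and 8.68, 12.2 and 15.6 CPM in Sgo1-/+, on 55.0 to 163 counts per library. Of the Sgo1-/+ libraries, 5 of 6 lay below the wild type median and 3 below every wild type library, with overlap of the groups. The means were 15.8 ± 3.11 and 11.9 ± 2.67 CPM (SD, n = 6 each), which is a log2 change of -0.41 ± 0.18 (SE; 95% interval -0.79 to -0.026). edgeR's quasi-likelihood test gave p = 0.0380 before and 0.505 after adjustment, and the exact two-sided permutation test gave p = 0.0411. The permutation p rose to 0.0823, 0.0758, 0.0909, 0.0779, 0.0909 and 0.0887 when wild type replicates 1, 4 or 5 or Sgo1-/+ replicates 2, 4 or 5 were left out in turn, so the single-gene call rested on each of them. edgeR's unadjusted p was likewise over 0.05 without each of these 6 libraries, at 0.0618 to 0.0953. It was 0.0957 without the 3 richest libraries, 0.0920 with the mitochondrial-like share in the fit, 0.0546 with no filter on low counts and 0.0544 with the replicate number as a block.

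Guanylin itself varied more within Sgo1-/+ than between the genotypes. Guca2a had lowest, median and highest levels of 851, 982 and 1268 CPM in wild type and 605, 920 and 1307 CPM in Sgo1-/+. Replicates 2, 4 and 5 of Sgo1-/+ were below every wild type library and replicate 3 was above every one, so the range of Sgo1-/+ enclosed that of wild type. The means were 1014 ± 155 and 928 ± 279 CPM (SD, n = 6 each). The log2 change was -0.13 ± 0.19 (SE), and its 95% interval of -0.54 to 0.29 leaves room for a decrease or an increase (edgeR adjusted p = 0.841, exact two-sided permutation p = 0.411).

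The receptor gene Gucy2c (ENSMUSG00000042638) lies on the minus strand of chromosome 6 at bases 136697285 to 136781765. Its lowest, median and highest levels were 161, 241 and 307 CPM in wild type and 120, 224 and 315 CPM in Sgo1-/+. The lowest and the highest of the 12 libraries were both Sgo1-/+, replicates 3 and 6, and the groups overlapped. The means were 236 ± 60.6 and 222 ± 62.3 CPM (SD, n = 6 each), which is a log2 change of -0.093 ± 0.21 (SE; 95% interval -0.55 to 0.36; edgeR adjusted p = 0.901; exact two-sided permutation p = 0.647).

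Cftr (ENSMUSG00000041301), the channel at the end of the pathway, spans bases 18170687 to 18322768 of chromosome 6 on the plus strand. Its lowest, median and highest levels were 77.8, 98.0 and 121.8 CPM in wild type and 86.9, 97.9 and 110.2 CPM in Sgo1-/+. Every Sgo1-/+ library lay inside the wild type range. The means of 98.0 ± 18.0 and 97.1 ± 8.79 CPM (SD, n = 6 each) differed by a log2 change of -0.012 ± 0.12 (SE), the smallest of the 5 and with the narrowest interval, -0.27 to 0.25 (edgeR adjusted p = 0.982, exact two-sided permutation p = 0.968).

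Cftr overlaps the antisense gene Gm15592, which had 287 to 980 counts per library, and no source used here says whether reads were counted by strand. Gm15592 ranged over 53.2 to 235 CPM (wild type) and 26.2 to 225 CPM (Sgo1-/+). It stood at 131 to 235 CPM in the 3 richest libraries and at 26.2 to 83.4 CPM in the other 9. Pearson's r of its log2 CPM with that of Cftr was -0.41 over all 12 libraries and -0.62 in the other 9. Within wild type r was -0.23 and within Sgo1-/+ -0.88, and these values were not tested. Of the 31-base words of Cftr, 1.32% were also in another gene, so reads of the pair may not be cleanly separated. The same share was under 0.3% for Gucy2c and Prkg2, where 10 of 3956 and 13 of 5388 words were shared. Prkg2 (ENSMUSG00000029334) spans bases 98929773 to 99037351 of chromosome 5 on the minus strand.

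**Figure D2:**
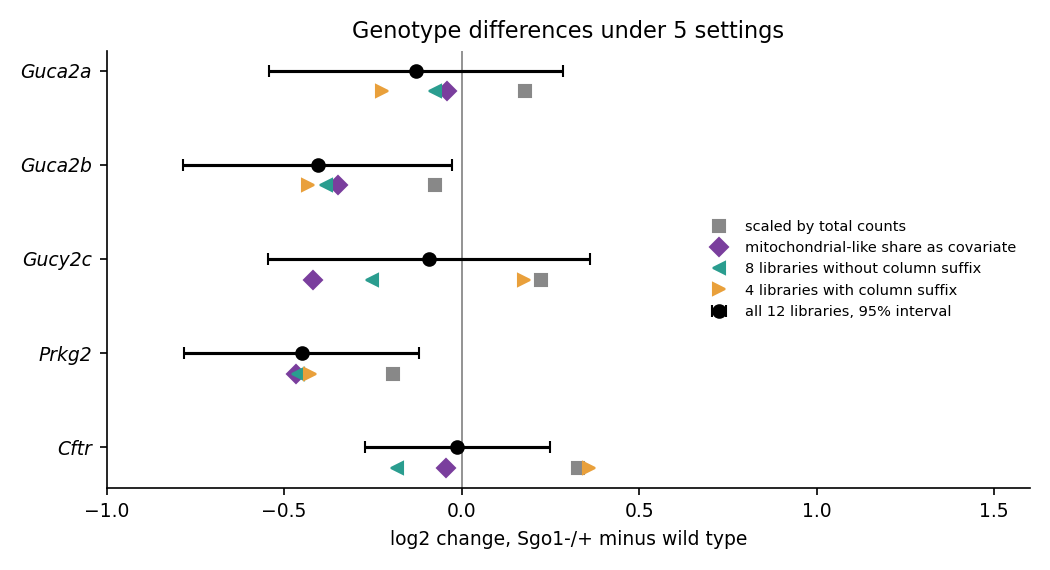
log2 change of each gene, Sgo1-/+ minus wild type, with black points and 95% intervals from edgeR on all 12 libraries and coloured points for 4 other settings. The black intervals of Prkg2 and Guca2b end below 0 and the other 3 cross it, and scaling by total counts moves every gene to the right.

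Scaling set where the zero line of this comparison lay. With total counts in place of TMM, the median log2 change of all tested genes moved from -0.0056 to 0.31, and 83.7% of genes were higher in Sgo1-/+ against 49.0% with TMM. Total counts without the 4 abundant entries gave a median of 0.14, with 70.3% of genes higher, so part of the shift remained without them. With total counts of all entries, Guca2a, Gucy2c and Cftr were higher in Sgo1-/+ by log2 changes of 0.18, 0.22 and 0.33. On that scale Guca2b and Prkg2 were at -0.074 and -0.19. Their exact two-sided permutation p became 0.708 and 0.619. Relative to the median gene the order stayed: -0.51 for Prkg2, -0.39 for Guca2b, -0.13 for Guca2a, -0.090 for Gucy2c and 0.014 for Cftr. The differences of Prkg2 and Guca2b are therefore differences relative to the other genes of the same libraries.

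Of the 5, only the receptor transcript was called for the share of mitochondrial-like entries, in edgeR's quasi-likelihood test with 1 slope for both genotypes. Gucy2c stood at 120, 161 and 172 CPM in the 3 richest libraries, 1 of Sgo1-/+ and 2 of wild type, and at 212 to 315 CPM in the other 9. These ranges did not overlap, as was the case for 19.1% of tested genes. In a fit with the share beside genotype, the Gucy2c level was lower by 0.36 ± 0.057 (SE) log2 units per 10 percentage points of share (coefficient -0.36; edgeR adjusted p = 8.25e-04), and the term was called in 28.7% of tested genes, 12.9% in this direction. Within the other 9 libraries r of Gucy2c with the share was -0.050 (rho = 0; permutation p = 0.902), so the relation rests on the 3 richest. The adjusted p of the share term was 0.367 to 0.893 for the other 4 genes. Within wild type r of Prkg2 with the share was -0.87 (permutation p = 0.0220, adjusted p = 0.0977). Within Sgo1-/+ r of Prkg2 was 0.51 (permutation p = 0.306), over 6 libraries each. For Cftr r was 0.048 within wild type and -0.78 within Sgo1-/+ (permutation p = 0.0406, adjusted p = 0.102 for the latter). For Gucy2c r was -0.89 and -0.93. The difference of these values between the genotypes was not tested.

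With the share in the fit, the genotype difference of Gucy2c became -0.42 ± 0.12 on the log2 scale, with edgeR's adjusted p = 0.296 (unadjusted p = 0.00386). Leaving out the 3 richest libraries gave only -0.15 (unadjusted p = 0.296), with 238 to 307 CPM in 4 wild type and 212 to 315 CPM in 5 Sgo1-/+ libraries. The part of the share in these differences was not tested further. For Prkg2 the value with the share in the fit was -0.47, for Guca2b -0.35, for Guca2a -0.042 and for Cftr -0.045.

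**Figure D3:**
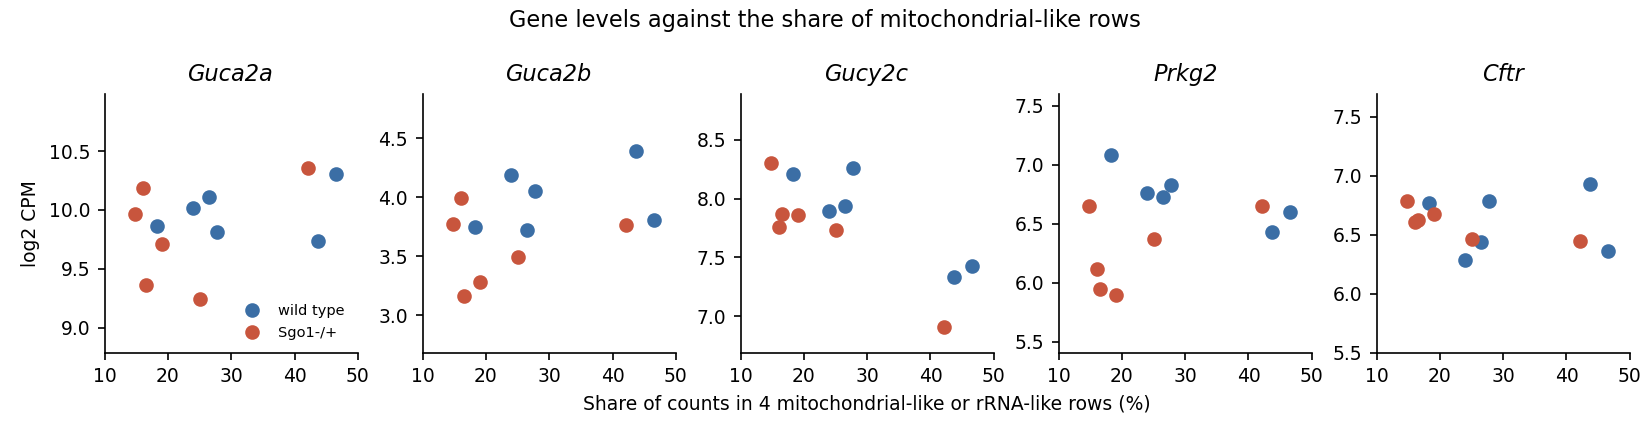
log2 CPM of each gene against the share of counts (percent) in the 4 mitochondrial-like or rRNA-like entries, with 1 point per library, wild type in blue and Sgo1-/+ in red, and the same span of 2.2 log2 units on each vertical axis. The 3 libraries above 40% lie below the other 9 for Gucy2c alone, and the points of Prkg2 separate by genotype below 30%.

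In 4 libraries, replicates 1 and 6 of wild type with replicates 5 and 6 of Sgo1-/+, the file's column name ends in a suffix of unstated meaning. Within the libraries without and with the suffix, the log2 changes were -0.46 and -0.43 for Prkg2, -0.38 and -0.43 for Guca2b and -0.075 and -0.22 for Guca2a, the same direction in both. They were -0.25 and 0.18 for Gucy2c and -0.18 and 0.36 for Cftr, opposite directions. The interaction of Cftr, 0.56 ± 0.23 (SE), had an adjusted p of 0.999 in edgeR (unadjusted p = 0.0300), where 4.57% of genes had an unadjusted p under 0.05 and 0 an adjusted one. For Gucy2c the interaction was 0.44 ± 0.44 (unadjusted p = 0.337).

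Markers of cell types and of position along the colon also differed by sign between the genotypes. Of 12 markers of absorptive surface colonocytes, 11 were lower in Sgo1-/+ by sign, with 2 lower at an unadjusted p under 0.05 against 5.05% of all tested genes, and a median log2 change of -0.33 against -0.0056 for all genes. The most abundant of the 12, Sprr2a1, Car1 and Cyp2c55, averaged 9873, 7930 and 4422.5 CPM in wild type and weighed most in the sum. Their unadjusted p in edgeR was 0.109, 0.230 and 0.109. The summed level of the 12 was 24010 to 35215 CPM in wild type and 18444 to 25466 CPM in Sgo1-/+, the lowest being Sgo1-/+ replicates 5 and 4 at 18444 and 19763 CPM. Replicates 4 and 5 were also the 2 lowest of all libraries for Prkg2, at 61.3 and 59.3 CPM, and for Guca2b, at 8.68 and 9.46 CPM. Not every library followed this order. Wild type replicate 5 had the lowest wild type sum, 24010 CPM, and the lowest wild type Prkg2, 86.0 CPM. Its Guca2b, 20.7 CPM, was the highest of all libraries. Sgo1-/+ replicate 1 had the highest Sgo1-/+ sum, 25466 CPM, with Prkg2 at 69.2 CPM. Sgo1-/+ replicate 6 had a sum of 23356 CPM and the highest Sgo1-/+ Prkg2, 100.5 CPM. All 5 tested markers of the distal colon were higher in Sgo1-/+, 3 of them at an unadjusted p under 0.05 against 4.59% of all tested genes. Their sum was 48.3 to 133.7 CPM in wild type and 55.0 to 334 CPM in Sgo1-/+, with 334, 255 and 260 CPM in Sgo1-/+ replicates 2, 4 and 5, the libraries with the lowest Guca2a. The sixth distal marker, Hoxd12, was too low to test. General epithelial markers showed 3 of 8 higher and a median log2 change of -0.0040. Of 8 crypt markers 7 were higher, with a median log2 change of 0.51, and 5 were higher and 1 lower at an unadjusted p under 0.05, against the same 4.59% and 5.05%. Their sum was 422 to 1185 CPM in wild type and 405 to 731 CPM in Sgo1-/+, and Cd44, the most abundant of them, had a log2 change of -0.82 ± 0.30. Of the other lists, plasma cells had 2 of 2 markers lower, both at an unadjusted p under 0.05. Leukocytes had 6 of 7 lower, 1 at that threshold, and tuft cells 4 of 6 lower, 2 at that threshold. Enteroendocrine cells had 4 of 7 higher, 2 at that threshold, all against the same 4.59% and 5.05%. Goblet cells had 7 of 10 higher, smooth muscle 3 of 5 lower and fibroblasts 3 of 5 lower, each with 0 at that threshold. The part of cell content and of the stretch of colon sampled in the guanylin pathway values was not tested.

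Whether the 5 genes varied together over the libraries depended on the scaling. With TMM, of 10 pairs, 0 passed the permutation test of Pearson's r on log2 CPM over 12 libraries (100000 resamples, two-sided), and the smallest adjusted p over the 10 pairs was 0.540. With total counts all 10 values of r were positive, from 0.42 to 0.87, and 2 pairs passed the permutation test, Gucy2c with Cftr (r = 0.87, rho = 0.93, adjusted p = 7.0e-04) and Gucy2c with Prkg2 (r = 0.74, rho = 0.61, adjusted p = 0.0346). With total counts the 4 abundant entries enter the scale of every gene in a library, and the permutation test does not take this out. These p-values therefore cannot tell a relation between 2 genes from that shared scale. The values that follow are those with TMM. For Guca2a and Guca2b, r was 0.44 (permutation p = 0.148) and Spearman's rho 0.38 (permutation p = 0.218). It was -0.044 without the 2 libraries farthest from the Guca2a median, Sgo1-/+ replicates 2 and 4, so the value rested on those libraries. Within wild type r was -0.58 and within Sgo1-/+ 0.77 over 6 libraries each, and the difference between these was not tested. The pair reached r = 0.71 in the 9 libraries outside the 3 richest (permutation p = 0.0350, adjusted p = 0.161). For the receptor and the channel, Gucy2c and Cftr, r was 0.32 over all 12 libraries (rho = 0.29; permutation p = 0.308 and 0.363; adjusted p = 0.540 and 0.604) and 0.74 without the 2 libraries farthest from the Gucy2c median (permutation p = 0.0153, adjusted p = 0.109). It was 0.077 within wild type, 0.84 within Sgo1-/+, 0.68 outside the 3 richest libraries and 0.42 in the 8 libraries without the column suffix. The 4 libraries with the suffix were too few for a value.

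The genes with the most similar pattern to each member, among 11866 candidates, were found by Pearson's r of log2 CPM over the same 12 libraries. They are a description, since they were picked as the highest of many, and all points share the same libraries and scaling. Plcd3, a phosphoinositide phospholipase C, followed Guca2a with r = 0.98 and rho = 0.97, though its mean level was 5.87 CPM. The value was 0.95 within wild type, 0.98 within Sgo1-/+ and 0.97 outside the 3 richest libraries. Serinc2, of the serine incorporator family, came next with r = 0.92, and the clock repressor gene Cry1 with r = 0.89. Closest to Guca2b were Osgin1, a growth inhibitor gene induced by oxidative stress, with r = 0.91, Adap2 with 0.84 and Myrip, which links Rab27 to myosin, with 0.83. For Adap2 r was 0.36 within wild type and 0.94 within Sgo1-/+.

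For Gucy2c the nearest genes were the sialomucin gene Cd164 with r = 0.96, the mitochondrial chaperone gene Dnaja3 with 0.96 and the proteasome subunit gene Psmd2 with 0.96. For Cftr they were Rcc1, the exchange factor of Ran, the translation factor gene Mcts1 and Bag4, with r = 0.88, 0.88 and 0.87. For Prkg2 they were Tmie with 0.92, the flavin monooxygenase gene Fmo5 with 0.90 and the sulfate transporter gene Slc13a1 with 0.89. Fmo5 and Slc13a1 differed between the genotypes by log2 changes of -0.67 ± 0.20 and -0.64 ± 0.18 (SE; edgeR adjusted p = 0.440 for each). No member was among the nearest genes of another.

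The other genes of the pathway were read from 6 lists of 78 genes in all, of which 66 were tested. In edgeR's quasi-likelihood test 0 of the 66 had an adjusted p under 0.05, and 8 were higher and 5 lower at an unadjusted p under 0.05, against 4.59% and 5.05% of all tested genes. By sign 40 were higher and 26 lower in Sgo1-/+, where 49.0% of all tested genes were higher. limma-voom called 0 of the 66, and DESeq2 called 1, Prkar2b.

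The list of cyclic GMP synthesis, export, breakdown and effectors had 12 of 20 genes tested, of which 6 were higher and 6 lower (median log2 change 0.036). Pde9a, the phosphodiesterase with high affinity for cyclic GMP, averaged 158 ± 40.0 CPM over the wild type and 103.9 ± 24.4 CPM over the Sgo1-/+ libraries (SD, n = 6 each), with a log2 change of -0.61 ± 0.18 (SE; edgeR unadjusted p = 0.00490, adjusted p = 0.440). Of the Sgo1-/+ libraries, 4 were below every wild type library for Pde9a, and the groups overlapped. Pde11a, which breaks down both cyclic nucleotides, differed by -1.92 ± 0.71 on low and scattered levels, 2.67 to 45.1 CPM in wild type and 1.28 to 13.1 CPM in Sgo1-/+. Pde3b, which cyclic GMP inhibits, differed by 0.60 ± 0.27. The unadjusted p in edgeR was 0.0178 for Pde11a and 0.0442 for Pde3b. Without wild type replicate 5, Pde11a was at -1.19 (unadjusted p = 0.0797). With the mitochondrial-like share in the fit, Pde11a was at -1.14 (unadjusted p = 0.0549) and Pde9a at -0.37 (unadjusted p = 0.00807). Pde3b was then at 0.44 (edgeR unadjusted p = 0.145), and at 0.16 in the libraries with the column suffix (unadjusted p = 0.758).

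None of the tested genes of salt exit and entry around CFTR passed edgeR's adjusted threshold. Of the 8 other anion channels and exchangers tested 5 were higher and 3 lower, with 1 lower at an unadjusted p under 0.05, against 5.05% of all tested genes. This was the anion exchanger gene Slc26a6, at 0.763 to 9.02 CPM in the wild type libraries and 0.411 to 2.30 CPM in the Sgo1-/+ libraries, with a log2 change of -1.30 ± 0.60 (edgeR unadjusted p = 0.0498). It was -0.59 without wild type replicate 5 (unadjusted p = 0.252), -0.76 without the 3 richest libraries (unadjusted p = 0.168) and -0.60 with the mitochondrial-like share in the fit (unadjusted p = 0.311). The calcium-activated chloride channel gene Ano1 differed by 0.57 ± 0.31 and the bestrophin gene Best2 by 0.79 ± 0.47. Of 13 genes of basolateral uptake or of potassium exit on either side of the cell 8 were higher and 5 lower (median log2 change 0.040). At an unadjusted p under 0.05, 2 were higher, Kcnn4 and Kcne3, and 0 lower, against 4.59% and 5.05% of all tested genes. Kcnn4, the calcium-activated potassium channel, averaged 24.6 ± 2.69 CPM over the wild type and 32.9 ± 6.01 CPM over the Sgo1-/+ libraries (SD, n = 6 each), with a log2 change of 0.42 ± 0.13 and 4 Sgo1-/+ libraries above every wild type library. Kcne3, the subunit that opens the cAMP-regulated channel KCNQ1, stood at 62.8 ± 20.3 and 86.8 ± 15.7 CPM (SD, n = 6 each), which is a log2 change of 0.47 ± 0.18. Kcnq1 itself differed by 0.032 ± 0.13 and Kcnma1, another potassium channel gene of the list, by -0.060 ± 0.20. Atp1b3, a sodium pump subunit, differed by -0.22 ± 0.13. The adjusted p of Kcnn4, Kcne3 and Atp1b3 in edgeR was 0.444, 0.491 and 0.591.

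The inhibited arm, sodium uptake through NHE3, was read with the PDZ scaffolds that hold NHE3, CFTR and the receptor at the apical membrane. Of 9 tested genes 4 were higher and 5 lower (median log2 change -0.00027). Slc9a3r1, the scaffold NHERF1, had 243 to 329 CPM in wild type and 205 to 296 CPM in Sgo1-/+, a log2 change of -0.27 ± 0.11, and 4 Sgo1-/+ libraries were below every wild type library. Slc9a3, which encodes NHE3 itself, differed by -0.32 ± 0.21 and the scaffold gene Slc9a3r2 by 0.69 ± 0.42, which was 0.12 with the mitochondrial-like share in the fit. With total counts, where the median of all genes was 0.31, Slc9a3r1, Slc9a3 and Atp1b3 were at 0.064, 0.0038 and 0.11.

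The cAMP arm reaches CFTR by another kinase, protein kinase A, and its list held the smallest p of the 6. Of 14 tested genes 10 were higher and 4 lower (median log2 change 0.086). Prkar2b, a regulatory subunit of protein kinase A, had lowest, median and highest levels of 0.50, 1.54 and 2.30 CPM in wild type and 2.76, 4.22 and 10.8 CPM in Sgo1-/+. The genotypes did not overlap, as for 0.346% of tested genes. The counts of Prkar2b were low, at an average of 31.4 per library. Its log2 change was 1.79 ± 0.39 (SE), with an adjusted p of 0.440 in edgeR and 0.0311 in DESeq2. The catalytic subunit gene Prkacb differed by 0.89 ± 0.26, with 5 of 6 Sgo1-/+ libraries above every wild type library, and the cAMP phosphodiesterase gene Pde4b by -1.06 ± 0.33. The cyclase gene Adcy6, also at an unadjusted p under 0.05, differed by 0.29 ± 0.10.

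Among 10 transcription factors known to act on these promoters 7 were higher and 3 lower (median log2 change 0.095). Foxa2 averaged 8.66 ± 2.61 CPM over the wild type and 15.4 ± 3.58 CPM over the Sgo1-/+ libraries (SD, n = 6 each), with a log2 change of 0.84 ± 0.21 (edgeR adjusted p = 0.440), and 5 of 6 Sgo1-/+ libraries above every wild type library. Sox9, a factor of crypt cells, differed by 0.35 ± 0.15 and Cdx1, an intestinal homeobox factor, by 0.11 ± 0.097.

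**Figure D4:**
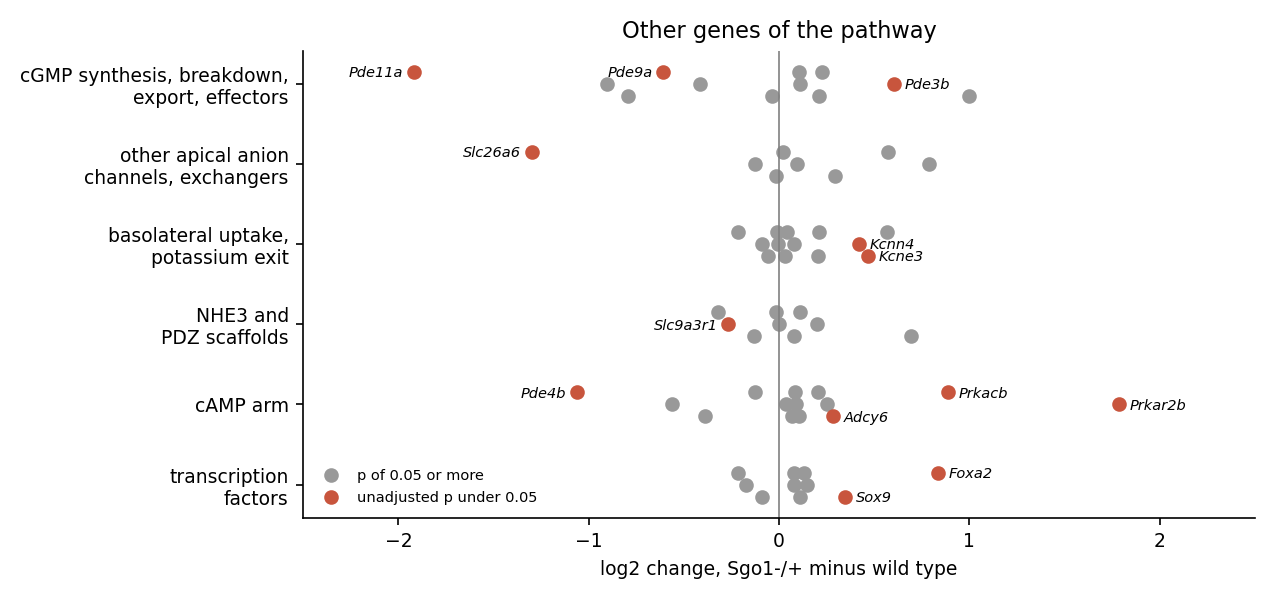
log2 change, Sgo1-/+ minus wild type, of the 66 tested genes of the 6 lists, with 1 point per gene, red and named where the unadjusted p of edgeR was under 0.05. Each list spreads on both sides of 0, and Prkar2b at 1.79 and Pde11a at -1.92 are the farthest.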

How the data were processed

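Messenger RNA of 12 samples of colonic mucosa was sequenced on an Illumina MiSeq from TruSeq V2 libraries (labels' protocols). The submitters' processing notes name mm10 and DESeq. No source used here states the aligner, the counter or whether strand was used. The raw columns deposited by the authors hold expected counts per gene (69.6% of values above 0 were not whole, tested exactly). The normalized columns deposited by the authors hold log2 values and were not used.

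Counts were rounded, 505 of 38592 entries without an Ensembl identifier (1.79% to 5.40% of counts) were left out, and 38087 genes remained. edgeR 4.0.16 in R 4.3.3 (TMM, filterByExpr with minimum count 10 and minimum total 15, glmQLFit without a replicate block, glmQLFTest) tested 13889 genes, with Benjamini-Hochberg adjustment and a threshold of 0.05. The SE is the log2 change divided by the square root of F. CPM used TMM factors and log2 CPM a prior count of 2. Single genes were also tested by exact two-sided permutation in Python 3.11.15 with numpy 2.4.6, and scipy 1.17.1 gave r and rho of the gene pairs. DESeq2 1.42.0 and limma-voom (limma 3.58.1) were alternatives, with other scalings, filters and sets of libraries; the fit with the mitochondrial-like share, the interaction with the column suffix and the correlations without the 3 richest libraries were added after the data were seen. Exon lengths and overlaps came from GENCODE M21, and RefSeq gave promoters for 3 of the 5 genes.

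The 5 genes, the lists and the tests were chosen with earlier results of these data known. Named beside the 5 were, in each list, the 3 of smallest p that had 10 or more counts on average, and the 3 genes most like each of the 5 at the same mean, predicted genes left out. Gm15592, Cd44, Sprr2a1, Car1, Cyp2c55, Hoxb13, Hoxd12, Adcy6, Kcnq1, Kcnma1 and the 4 abundant entries were named after their values were seen. Groups followed the genotype labels. Libraries of a group differed by at least 14.7 in chi-square per degree of freedom, and each counted as its own. edgeR was tested on counts simulated with the mean levels and library sizes of this comparison (13889 genes): of 100 genes shifted by 1 log2 it found 50%, of 100 shifted by 2 log2 97%, and 7 of its 154 calls were false. The simulated spread was set by the mean level alone, with no variation shared between genes, unlike the real libraries. Shifts below 1 log2 were not simulated, so the power for changes of the size seen in the 5 genes is not known.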

Additional observations from a re-analysis of the deposited data

How the results depend on the processing

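With the replicate number as a block in edgeR, the log2 changes were -0.17 for Guca2a, -0.41 for Guca2b, -0.11 for Gucy2c, -0.47 for Prkg2 and 0.0026 for Cftr, and 0 genes had an adjusted p under 0.05. Under the block the unadjusted p of Guca2b was 0.0544, over the threshold it passed without it, and that of Prkg2 0.00707. The labels do not say what the numbers mean. Same-numbered deviations correlated at -0.30 to 0.45, over 0.1 in 2 of 6 pairs. Of the wild type libraries, 1 of 6 correlated best with its own number. These correlations cannot decide whether same-numbered libraries share an origin. In edgeR, DESeq2 and limma-voom under the alternatives run, Prkg2 and Guca2b stayed lower in Sgo1-/+, with adjusted p from 0.126 to 0.985.

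The count of genes called was 0 with edgeR, 30 with DESeq2, 1 with the mitochondrial-like share as covariate and 1 in the libraries with the suffix alone; of the pathway list genes DESeq2 called 1, Prkar2b at 1.79. Guca2a reached 0.18 with total counts and 0.021 with total counts without the 4 abundant entries. Gucy2c reached 0.22 and 0.060 there and 0.18 in the libraries with the suffix. Cftr was 0.017 with upper quartile scaling, 0.33 and 0.15 with those total counts, 0.023 with no filter, 0.36 in the libraries with the suffix, 0.059 without the 3 richest libraries and 0.0052 with limma-voom. Atp1b3, Slc9a3r1 and Slc9a3 turned to 0.11, 0.064 and 0.0038 with total counts. Leaving out 1 library at a time gave -0.25 to -0.018 for Guca2a, -0.49 to -0.31 for Guca2b, -0.20 to 0.034 for Gucy2c, -0.069 to 0.059 for Cftr and -0.53 to -0.36 for Prkg2. The differences in mean log2 CPM with total counts were 0.16 for Guca2a, -0.081 for Guca2b, 0.23 for Gucy2c and -0.14 for Prkg2, and Guca2b and Prkg2 then missed the exact permutation threshold. That of Cftr was 0.0030, and -0.0024 with DESeq2 size factors. Leaving out 1 library moved them from -0.49 to -0.32 for Guca2b, from -0.22 to 0.061 for Gucy2c and from -0.059 to 0.070 for Cftr. With total counts 2 of 10 pairs passed, among them Gucy2c and Cftr at r = 0.87; r of Guca2a and Guca2b turned to -0.044 without the 2 farthest libraries and -0.58 within wild type. The causes of these shifts were not tested. Of the 5 genes Guca2b had the fewest counts, 55.0 in its lowest library, and Slc26a6 averaged 12.7.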
